A study of Mus musculus with 2 samples.

Results

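The cells described here are 51 astrocyte-like cells of the adult mouse subventricular zone that carried RNA of Notum, Axin2 or Sp5, genes that Wnt signalling is known to switch on. They were chosen cell by cell from measured counts. A cell was kept if at most 10% of its UMIs came from mitochondrial genes, a UMI being a molecular tag that counts each captured transcript once. Its UMIs of Slc1a2, Aldoc, Ntsr2, Cldn10 and Gja1, 5 astrocyte genes, had to sum to at least 40 per 10000. Notum, Axin2 and Sp5 together needed at least 2 UMIs. Gfap and Thbs4 together, and Rspo3, Adamts18, Ecel1 and Prss56 together, were each allowed at most 1 UMI. Of 3937 barcodes in the matrix, 3915 passed the mitochondrial limit and 1337 of these passed the astrocyte threshold. The 51 members were 27 of 770 cells over the threshold in library 1 (3.51%, exact 95% interval 2.32 to 5.06%) and 24 of 567 in library 2 (4.23%, 2.73 to 6.23%). They are set against comparison cells, the 555 and 420 cells of the same libraries over the same threshold with 0 UMIs of Notum, Axin2 and Sp5. Because counts chose the members, what follows describes them and tests nothing.

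The study sequenced single cells from male C57BL/6 mice of 22 and of 2 months. Tissue of the lateral subventricular zone, the stem cell niche along the lateral ventricle, was pooled from 8 mice of 22 months and from 4 mice of 2 months. Sorting took cells with GLAST, the glutamate transporter found on stem cells and astrocytes, and left out those with O4, Ter119 and CD45, marks of oligodendrocyte lineage, red blood and white blood cells, before droplet capture. Each age had 1 library of pooled mice, and no label tied a library number to an age, so no value is given by age and no p-value can be made. Intervals are 95% and cover counting error only, not differences between mice.

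Library 1 had 10440891 UMIs over 1849 barcodes and library 2 had 13330251 over 2088, with medians of 4463 and 5763 UMIs a barcode. The mitochondrial limit removed 9 and 13 barcodes. Scrublet, a doublet caller, marked 15 barcodes (0.811%) of library 1 and 11 (0.527%) of library 2, of which 0 were members. Both libraries shared 4 barcode sequences, and 0 of these were members.

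In canonical Wnt signalling, a ligand bound to Frizzled and Lrp receptors stops the destruction complex from degrading beta-catenin, which then acts with Tcf and Lef factors on target genes. Some of these targets damp the signal. Notum encodes a secreted enzyme that removes the lipid Wnt ligands need, Axin2 encodes a scaffold of the destruction complex, and Sp5 encodes a transcription factor that tempers other targets. In the adult subventricular zone, Wnt signals are known to act on the balance between stem cell rest, self-renewal and neuron production.

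Notum lies at chr11:120653788-120661175 on the minus strand, Axin2 at chr11:108920349-108950783 on the plus strand and Sp5 at chr2:70474923-70477729 on the plus strand of GRCm38. The 250 bases before the starts of Axin2 and Sp5 are shown because both are textbook targets of Tcf and Lef factors. Capitals mark CTTTGA or CTTTGT, the core that these factors bind, or the same letters on the other strand. Sequences are from RefSeq, build GRCm38.p6, read 5′ to 3′ on the strand of the gene at chr11:108920099-108920348 for Axin2 and chr2:70474673-70474922 for Sp5.
Axin2: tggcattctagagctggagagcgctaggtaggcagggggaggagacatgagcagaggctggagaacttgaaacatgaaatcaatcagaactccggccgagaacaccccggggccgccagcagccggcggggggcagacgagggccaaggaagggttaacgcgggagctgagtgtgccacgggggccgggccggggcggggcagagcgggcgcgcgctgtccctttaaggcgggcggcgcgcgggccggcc
Sp5: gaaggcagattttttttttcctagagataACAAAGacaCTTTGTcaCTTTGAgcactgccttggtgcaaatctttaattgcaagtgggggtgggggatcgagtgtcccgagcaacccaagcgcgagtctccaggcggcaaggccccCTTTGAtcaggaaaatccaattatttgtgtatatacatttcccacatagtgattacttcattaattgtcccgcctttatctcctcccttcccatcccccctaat
The Sp5 window held 4 matches and the Axin2 window 0. Over 32851 promoter windows of the same length, 27.6% held at least 1 match and 0.0944% at least 4. A match is a run of letters, not a site shown to be bound in these cells.

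Notum carried most of the choice. Members held 53 UMIs of Notum in library 1 and 50 in library 2, or 400 and 475 CPM, which is its UMIs over all UMIs of the group on the usual scale. Sp5 had 22 and 9 UMIs in members, or 166 and 85.5 CPM. Axin2 had 15 and 10 UMIs in members, or 113 and 95 CPM. Notum was seen in 23 of 27 and 20 of 24 members, Axin2 in 12 and 8, and Sp5 in 14 and 6. In 5 members of library 1 and 12 of library 2 Notum was the only one of these genes with a UMI, and 4 members of each library had none of it. The summed UMIs of all 3 genes had a median of 3 in library 1 and 2.5 in library 2, with at most 8 and 5 in a cell.

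Notum UMIs also occurred in cells outside the astrocyte range, where free RNA can enter any droplet. By the rule, 85.2% (66.3 to 95.8%) and 83.3% (62.6 to 95.3%) of members had a Notum UMI, at median depths of 4442 and 4029 UMIs. Among cells with at least 40 UMIs of oligodendrocyte genes per 10000, the share was 2.88% (0.599 to 8.20%) of 104 cells in library 1 and 0 of 9 in library 2, which allows up to 33.6%; their median depths were 4255 and 5119 UMIs. Neuroblast cells, chosen in the same way from Dcx, Dlx6os1, Sox11, Tubb3 and Cd24a, had Notum in 2.42% (1.11 to 4.54%) of 372 cells and 2.56% (1.37 to 4.34%) of 507, at 3625 and 4828 UMIs. Axin2 had a UMI in 5.38% and 5.92% of neuroblast cells. Over all cells below the astrocyte threshold the share with Notum was higher than in these types, 9.35% (7.67 to 11.3%) of 1070 cells in library 1 and 13.5% (11.8 to 15.3%) of 1508 in library 2, at median depths of 6718 and 7374.5 UMIs.

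The limits of the rule set aside more cells than they kept. Over the astrocyte threshold, 175 cells had at least 2 UMIs of the 3 Wnt genes, 107 in library 1 and 68 in library 2. Of these, 114 (65.1%) were over the limit for Rspo3, Adamts18, Ecel1 and Prss56, 25 were over that for Gfap and Thbs4, 15 of them over both, and 51 (29.1%) were members. Most cells over the threshold with the Wnt genes are therefore not members.

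Just outside the rule were 79 cells of library 1 and 54 of library 2 within the same limits but with 1 Wnt gene UMI. Members just inside, with exactly 2 UMIs, numbered 9 and 12. Their 5 astrocyte genes summed to a median of 70.4 and 53.8 per 10000, against 116 and 92.8 in the cells with 1 UMI. On the other side, 15 and 18 members lay at 40 to 60 per 10000, just above the astrocyte threshold. Cells meeting every other limit at 20 to 40 per 10000 numbered 18 and 19, with a median depth of 7582.5 and 6690 UMIs against 5438 and 4276 UMIs in the members at 40 to 60.

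Members therefore sat low in the astrocyte range. Their 5 astrocyte genes had a median of 54.4 per 10000 (41.3 to 185) in library 1 and 52.9 (41.1 to 105) in library 2, against medians of 141 and 126 in comparison cells. Members were also deeper, with median depths of 4442 and 4029 UMIs against 3340 and 3342 in comparison cells. Their median number of detected genes was 2057 and 1865.5, against 1567 and 1599. Both differences move with every comparison below, so results are also given at matched astrocyte level.

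The given name of these cells, quiescent-like, and its other markers did not hold evenly. Slc25a18, a mitochondrial glutamate carrier, had 14 UMIs in members of library 1 (106 CPM) and 152 in comparison cells (79.6 CPM), a ratio of 1.33 (0.709 to 2.30). In library 2 it had 2 UMIs in members (19.0 CPM) and 94 in comparison cells (63.5 CPM), a ratio of 0.299 (0.0357 to 1.11). Dio2, the deiodinase that makes active thyroid hormone, had 121 CPM in members of library 1 and 30.9 CPM in comparison cells, a ratio of 3.91 (2.10 to 6.89). In library 2 Dio2 had 47.5 CPM in members and 41.2 CPM in comparison cells, a ratio of 1.15 (0.361 to 2.84). Neither gene was higher in members of both libraries beyond counting error.

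Cell cycle RNA was no lower in members than in comparison cells. With each cell thinned to 2000 UMIs, 16 of 25 members (64%) of library 1 and 14 of 24 (58.3%) of library 2 had at least 3 UMIs of S, G2 and M phase genes, against 35.8% and 51.2% of comparison cells. At full depth the shares were 25 of 27 and 23 of 24 members, against 61.3% and 82.9%. A few such UMIs do not show a dividing cell. The cells are called here by the genes that chose them rather than as quiescent.

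Genes were compared where members had at least 10 UMIs observed or expected in each library, with the 14 genes of the rule left out, which left 2029. Of these, 302 (14.9%) were at least 1.5-fold higher in members in both libraries and 167 (8.23%) at least 1.5-fold lower. The limit set the direction of rare genes and so bears on these shares, here and in later comparisons. A gene expected under 10 UMIs could pass only by being higher in members, as Nptx2, Bmper, Mycn and Mcm7 did. A gene observed under 10 UMIs could pass only by being lower, as S100b, Tril and Slc39a12 did. The median log2 ratio over all 2029 genes was 0.13 in library 1 and 0.19 in library 2. Both libraries gave the same sign for 1526 genes. Counts of list genes below are to be read beside the 14.9% and 8.23% of all genes. Immediate early genes stood at the high end and astrocyte genes at the low end.

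**Figure D1:**
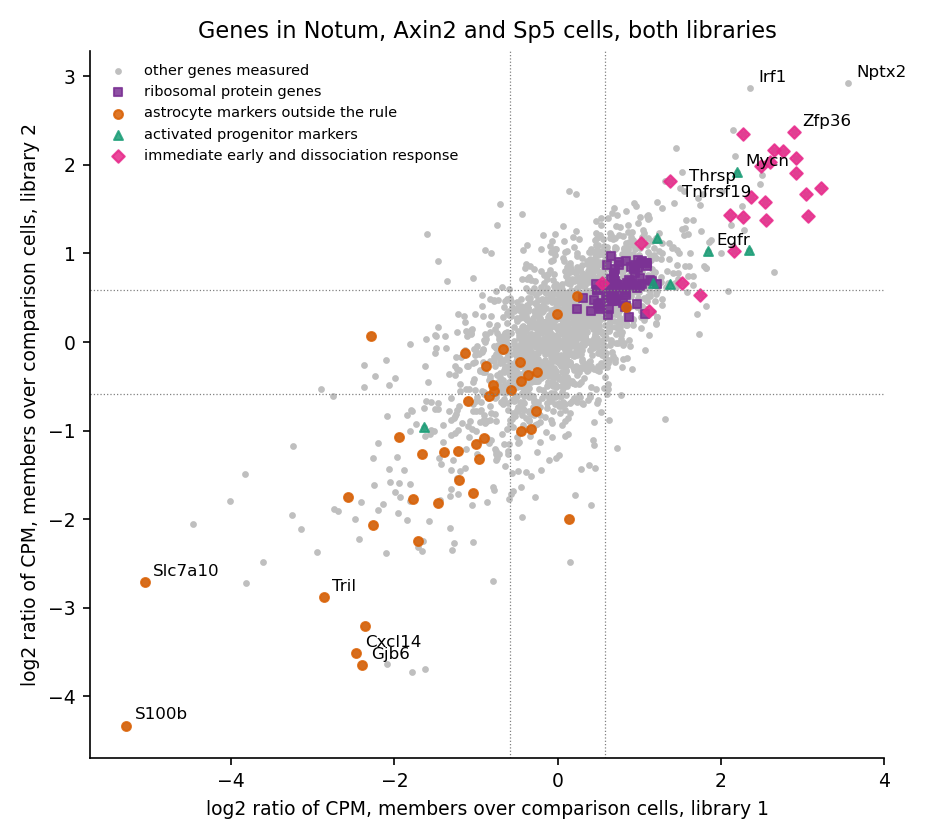
Log2 ratio of CPM in members over comparison cells for each of 2029 genes, library 1 on the x axis and library 2 on the y axis, with dotted lines at 1.5-fold. Early genes (diamonds) lie in the upper right, and astrocyte markers outside the rule (circles) reach to S100b at the lower left. Ribosomal protein genes (squares) form a compact group around the 1.5-fold lines on the higher side. A gene with 0 UMIs in a group is drawn at its bound.

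Upstream parts of the Wnt pathway were sparse. Wnt ligand genes summed to 10 UMIs in members of library 1 (75.5 CPM) and 11 in library 2 (104 CPM), against 196 and 163 CPM in comparison cells. Genes for Wnt secretion and agonists summed to 151 and 47.5 CPM in members, against 207 and 72.3 CPM. From neither list did any gene have the 10 UMIs, observed or expected, that a comparison needed in both libraries.

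Receptors and antagonists were near the comparison level. Frizzled, Lrp and related receptor genes summed to 604 and 399 CPM in members, against 484 and 448 CPM in comparison cells. Of them, Fzd2, a Frizzled receptor, had 136 and 66.5 CPM in members against 127 and 123 CPM. Tspan12, which aids Frizzled signalling by norrin, had 144 and 104 CPM in members against 161 and 136 CPM. Wnt antagonist genes summed to 408 and 560.3 CPM in members, against 527 and 499 CPM. Sfrp1, which binds Wnt ligands, had 75.5 and 218 CPM in members against 95.8 and 155 CPM, and so lay below the comparison cells in library 1 and above them in library 2.

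Within the cell, 1 of 5 beta-catenin cascade genes was past 1.5-fold higher in both libraries, against 14.9% of all genes measured. This gene was Ctnnb1. It encodes beta-catenin and had 151 and 104 CPM in members against 43.5 and 57.4 CPM in comparison cells, ratios of 3.48 (2.02 to 5.72) and 1.82 (0.875 to 3.42). With comparison cells weighted to the members' astrocyte level, Ctnnb1 was 2.21-fold and 1.40-fold higher. The median log2 ratio of the 5 genes, without weighting, was 0.37 and 0.47. Gsk3b, a kinase of the destruction complex, had 279 and 152 CPM in members against 170.2 and 153 CPM. Tcf7l2, a factor that takes beta-catenin to DNA, had 68.0 and 133 CPM in members against 175 and 139 CPM.

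Among other known Wnt targets, 3 of 5 measured genes were past 1.5-fold higher in both libraries, with median log2 ratios of 1.22 and 1.18. The direction in library 1 turned when comparison cells were weighted to the members' depth, which gave medians of -0.17 and 0.81 with 2 of 5 higher, and weighting to the members' astrocyte level gave 0.37 and 0.14 with 1 of 5. Tnfrsf19, a receptor of the tumour necrosis factor family known as a Wnt target and a mark of gut stem cells in mice, had 295 and 370.4 CPM in members against 109.5 and 125 CPM in comparison cells. Its ratios of 2.69 (1.86 to 3.8) and 2.96 (2.04 to 4.20) were close in both libraries, and no member gave more than 17.9% of its UMIs. Ccnd2, a D cyclin, and Jun, an AP-1 factor, were the others, and both also belong to lists described below. Id2 and Dkk3 were not higher. Id2, an inhibitor of differentiation factors, had log2 ratios of -0.47 and -1.13, and Dkk3, a dickkopf family protein, -0.39 and -0.08.

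Nkd1, which binds Dishevelled and damps Wnt signalling, fell short of 10 UMIs in library 1 and is named after its values were seen, as are the rarer feedback genes. It had 8 UMIs in members (60.4 CPM) against 37 in comparison cells (19.4 CPM) in library 1, a ratio of 3.12 (1.25 to 6.80). In library 2 it had 16 UMIs in members (152 CPM) against 32 (21.6 CPM), a ratio of 7.03 (3.60 to 13.2). Both intervals lay above 1. Znrf3, a ligase that removes Frizzled receptors, gave no such difference, with ratios of 0.304 (0.0362 to 1.13) and 0.907 (0.240 to 2.44). Lef1, a partner of beta-catenin, had 3 UMIs in members of library 1 and 0 in library 2, against 9 and 3 in comparison cells. Tcf7, Rnf43, Apcdd1, Lgr5, Lgr6 and Nkd2 had at most 1 UMI in members of either library.

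Immediate early genes, switched on within minutes by many stimuli and known also to be induced when tissue is dissociated, had the highest list median. Of 23 measured, 20 were at least 1.5-fold higher in members in both libraries and 0 lower, with median log2 ratios of 2.5 and 1.64; whether dissociation bears on this was not tested. Summed, the list had 34036 and 16981 CPM in members, against 6345 and 5653 CPM in comparison cells, or 5.36-fold and 3.0-fold. Fos, an AP-1 subunit, had 7070 and 4274 CPM in members against 1166 and 1046 CPM. Junb, its partner, had 3354 and 1738 CPM in members against 495 and 390.5 CPM.

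Other early genes named by the rule of the highest ratios were regulators of RNA and of transcription. Zfp36, which promotes decay of AU-rich mRNAs, had 355 and 237 CPM in members against 47.7 and 45.9 CPM, or 7.45-fold and 5.17-fold. Ier2 was 7.58-fold and 4.22-fold higher and Nr4a1, an orphan nuclear receptor, 5.64-fold and 3.95-fold higher. Dnajb1, a co-chaperone of heat shock protein 70 family members, was 6.28-fold and 4.50-fold higher. Klf10, a zinc finger factor not on the list, was 4.46-fold and 5.27-fold higher. Klf4, a related factor, was 4.84-fold and 5.08-fold higher, but 1 cell gave 43.2% of its member UMIs in library 1 and 76.5% in library 2.

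The early response was uneven among members. Per cell, the list had a median of 139.8 UMIs per 10000 in members of library 1, with quartiles of 49.1 and 512 and a range of 24.8 to 1346. In library 2 the median was 74.6, with quartiles of 35.1 and 259 and a range of 16.4 to 842. Comparison cells had medians of 25.6 and 25.7 and upper quartiles of 36.2 and 37.1. The groups overlapped, since 6.49% and 12.9% of comparison cells reached the members' median.

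**Figure D2:**
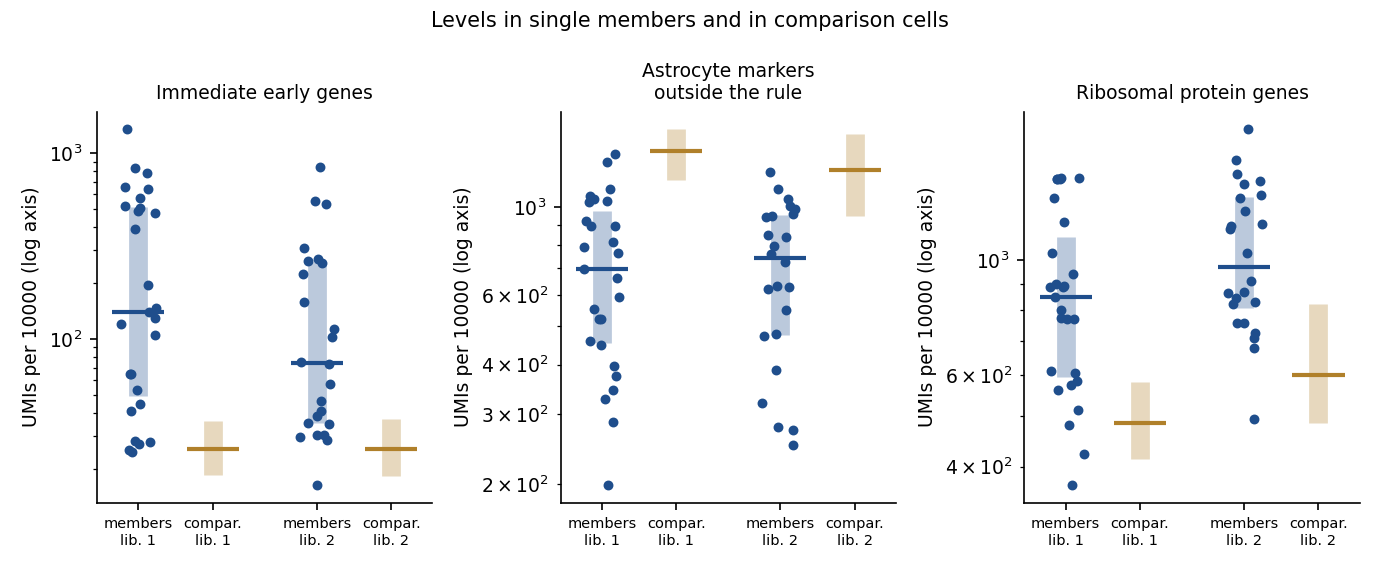
UMIs per 10000 of 3 gene lists (log axes) in each member (points) of library 1 and library 2, with medians (lines) and quartile ranges (shaded) of members and comparison cells. Members spread from 24.8 to 1346 for early genes in library 1, while comparison cells had a median of 25.6. Astrocyte markers were lower and ribosomal protein genes higher in members.

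Among genes not on the early gene list, Nptx2 led the ranking. Whether it is part of the early response of members was not tested. It encodes neuronal pentraxin 2, a secreted protein of excitatory synapses, and lies at chr5:144545902-144557478 on the plus strand. It had 58 UMIs in members of library 1 (438 CPM) against 71 in comparison cells (37.2 CPM), or 11.8-fold (8.18 to 16.9). In library 2 it had 20 UMIs (189.9 CPM) against 37 (25 CPM), or 7.60-fold (4.18 to 13.4). No member gave more than 30% of these UMIs. Irf1, a factor of the interferon response, was 5.14-fold (3.30 to 7.82) and 7.29-fold (3.53 to 14.4) higher, though 1 cell gave 50.0% of its UMIs in library 2. Bmper, a secreted protein that binds bone morphogenetic proteins, had 75.5 and 104 CPM in members against 16.8 and 24.3 CPM, or 4.51-fold (1.98 to 9.40) and 4.30-fold (1.97 to 8.63).

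Mature astrocyte genes were the low end. Of 40 astrocyte markers that the rule did not use, 22 were at least 1.5-fold lower in members in both libraries and 0 higher, with median log2 ratios of -1.01 and -1.08. The full list summed to 65767 and 66329.8 CPM in members, against 133632 and 123070 CPM in comparison cells. The rule reads 5 other genes of the same cell type, and members sat near its threshold.

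S100b, a calcium-binding protein of mature astrocytes, was the lowest. It had 1 UMI in members of each library (7.55 and 9.50 CPM) against 562 and 283 UMIs in comparison cells (294 and 191 CPM). The ratios were 0.0257 (0.000649 to 0.144) and 0.0497 (0.00125 to 0.279). Slc7a10, a neutral amino acid transporter, had 2 and 7 UMIs in members against 962 and 645 in comparison cells, ratios of 0.0300 (0.00363 to 0.109) and 0.153 (0.0611 to 0.316). Cxcl14, a chemokine, had 181 and 66.5 CPM in members against 1002 and 759 CPM, log2 ratios of -2.47 and -3.51. S100b and Slc7a10 thus had at most 7 UMIs in members of either library, while Cxcl14 was low but present.

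Channel and receptor genes of astrocytes were low as well. Gjb6, the gap junction protein connexin 30, had 52.9 and 19.0 CPM in members against 278 and 238 CPM. Aqp4, the water channel of astrocyte endfeet, had 68.0 and 28.5 CPM in members against 348 and 263 CPM. Tril, a partner of Toll-like receptors, had 4 UMIs in members of library 1 and 0 in library 2, against 420 and 311 in comparison cells. That was a log2 ratio of -2.86 in library 1 and at least 7.37-fold lower in library 2, counted against a floor of 3 UMIs over the group. Slc39a12, a zinc transporter, had 2 and 0 UMIs in members against 407 and 279, and was at least 6.62-fold lower in library 2. Grin2c, a subunit of NMDA receptors, had log2 ratios of -3.15 and -2.11. Clusterin, encoded by Clu, had 808 and 1605 CPM in members against 4789 and 5401 CPM, log2 ratios of -2.57 and -1.75. Pla2g7, Nrbp2 and Arxes2 completed the lowest genes with names, at log2 ratios of -2.43 and -2.22, -2.95 and -2.37, and -2.10 and -2.38.

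Transporters and enzymes for glutamate and GABA followed the astrocyte markers, with 6 of 10 measured genes lower and 1 higher, and medians of -0.89 and -0.83. Glul, glutamine synthetase, had log2 ratios of -1.0 and -0.66. Slc38a1, a glutamine transporter common in neurons, went the other way at 3.61-fold and 2.18-fold higher. Slc1a3, which encodes the sorted antigen GLAST, was level in library 1 (log2 ratio 0.02) and lower in library 2 (-0.68).

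Activated progenitor genes were higher, with 6 of 7 measured genes past 1.5-fold in both libraries and median log2 ratios of 1.38 and 1.02. Egfr, the receptor that marks activated stem cells, had 234 and 114 CPM in members against 65.5 and 56.1 CPM, ratios of 3.58 (2.33 to 5.34) and 2.03 (1.01 to 3.74). Mycn, a growth-promoting factor, was 4.60-fold and 3.77-fold higher, and Ccnd2 2.33-fold and 2.27-fold higher. Hes6 and Fgfbp3 were 2.61-fold and 1.57-fold, and 2.25-fold and 1.59-fold higher. Rgcc, a regulator of the cell cycle, was the exception, with 90.6 and 142 CPM in members against 282 and 278 CPM.

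Stem cell and Notch genes were mixed. Of 21 quiescent stem cell genes measured, 6 were higher and 1, Clu, was lower, with medians of 0.48 and 0.45. The higher ones included structural and lipid-binding genes of radial glia. Vim, an intermediate filament, was 3.16-fold and 1.68-fold higher, and Fabp7, a fatty acid binding protein, 3.05-fold and 1.81-fold higher. Cdkn1b, an inhibitor of the cell cycle, was 2.31-fold and 1.93-fold higher, Igfbp5 1.77-fold and 1.63-fold, and Nfib, a nuclear factor I protein, 1.54-fold and 1.52-fold. Of 7 Notch pathway genes, Notch1 (1.76-fold and 1.99-fold), Hes1 (2.34-fold and 2.23-fold) and Hes6 were higher, with medians of 0.23 and 0.65. Hes1 in library 2 leaned on 1 cell, which gave 55.2% of its UMIs. Hes5, the most abundant of the list, was near level, with log2 ratios of 0.23 and 0.54.

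Ribosomal protein genes were higher by a small and even amount, 44 of 78 past 1.5-fold and 0 lower, with medians of 0.73 and 0.64. With comparison cells weighted to the members' depth 2 of 78 were past 1.5-fold. S phase genes had 2 of 4 measured past 1.5-fold, Mcm7, a part of the replication helicase, at 5.59-fold and 3.44-fold and Tipin, a replication fork protein, at 1.92-fold and 2.07-fold. Smc4, a condensin subunit, was the only gene of G2 and M phase with enough UMIs, at 2.88-fold and 2.42-fold. Neuroblast genes had 2 of 6 higher, against 14.9% of all genes. They were Sox11, at 1.87-fold and 1.80-fold, and Sox4, at 1.88-fold and 1.91-fold, which encode factors of immature neurons. With comparison cells weighted to the members' depth 0 of the 6 were past 1.5-fold higher, and in library 1 Sox11 and Sox4 turned to log2 ratios of -0.66 and -0.53.

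Metabolic lists moved little. Over all genes measured, 14.9% were higher and 8.23% lower. Glycolysis genes had 1 of 10 higher and 3 lower, with medians of -0.54 and -0.19. Ldha, the lactate dehydrogenase subunit of glycolytic cells, was higher at 1.98-fold and 2.55-fold, while Gapdh had log2 ratios of -0.90 and -0.82. Of 19 fatty acid oxidation genes 2 were higher and 3 lower, and of 10 for cholesterol and fatty acid synthesis 3 were higher (Hmgcs1, Idi1 and Insig1) and 2 lower (Srebf1 and Elovl5). Of 5 thyroid hormone genes, Thrsp was higher and Crym lower. Thrsp, a lipid synthesis gene known in mice to mark slowly dividing neural progenitors, had 453 and 427 CPM in members against 159.7 and 128 CPM. Its ratios were 2.84 (2.11 to 3.75) and 3.35 (2.36 to 4.65), with 62.2% of the UMIs of library 2 from 1 cell, without which the ratio there was 1.35 (0.77 to 2.22). Crym, which binds thyroid hormone in the cytosol, had 506 and 351 CPM in members against 1865 and 957 CPM. Of 10 measured genes for matrix and adhesion, 3 were lower and 0 higher, with medians of -0.59 and -0.45, and of 4 for BMP and TGF-beta signalling 0 were past 1.5-fold.

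Marker genes of other cell types stayed low in both groups. Microglia genes summed to 37.8 and 57.0 CPM in members against 75.4 and 64.2 CPM in comparison cells, and endothelial genes to 37.8 and 95 CPM against 60.2 and 57.4 CPM. Oligodendrocyte genes summed to 718 and 209 CPM in members against 608 and 270.2 CPM. The libraries went opposite ways for ependymal genes, at 181 and 655 CPM in members against 285 and 424 CPM, and for neuron genes, at 189 and 646 CPM against 437 and 429 CPM. Their part in the other results was not tested.

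The Wnt genes were most frequent at an intermediate astrocyte level, which the threshold cuts through. Among cells that were neither oligodendrocyte nor neuroblast cells, 51.1% (40.2 to 61.9%) of those at 40 to 60 per 10000 in library 1 had at least 2 UMIs of Notum, Axin2 and Sp5. The shares in that library were 7.41% below 10, 12.8% at 10 to 20, 31.7% at 20 to 40, 38.9% at 60 to 80, 13.4% at 80 to 120, 2.78% at 120 to 160 and 1.68% above. In library 2 they were 9.94%, 19.9%, 36.2% (27.9 to 45.2%), 34.9% (25.9 to 44.8%), 20.0%, 9.92%, 1.49% and 0% over the same classes. So the share was highest at 40 to 60 in library 1 and about as high at 20 to 40 as at 40 to 60 in library 2.

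Depth differed along this axis, from medians of 9657 and 9084 UMIs in the lowest class to 3653 and 3667 in the highest. After thinning each cell to 2000 UMIs, the class at 40 to 60 had the highest share in both libraries, 30.6% (21.0 to 41.5%) in library 1 and 17.6% (10.8 to 26.4%) in library 2. The lowest class then had 1.03% and 2.06%, and the highest 1.20% and 0%. Notum itself was 281 and 206 CPM at 40 to 60, 14.7 and 23.5 CPM in the lowest class and 15.3 and 4.52 CPM in the highest. Tnfrsf19, which the rule did not use, was also higher in the middle, with 307 and 295 CPM at 40 to 60, 54.3 and 63.4 CPM in the lowest class and 107 and 72.3 CPM in the highest.

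**Figure D3:**
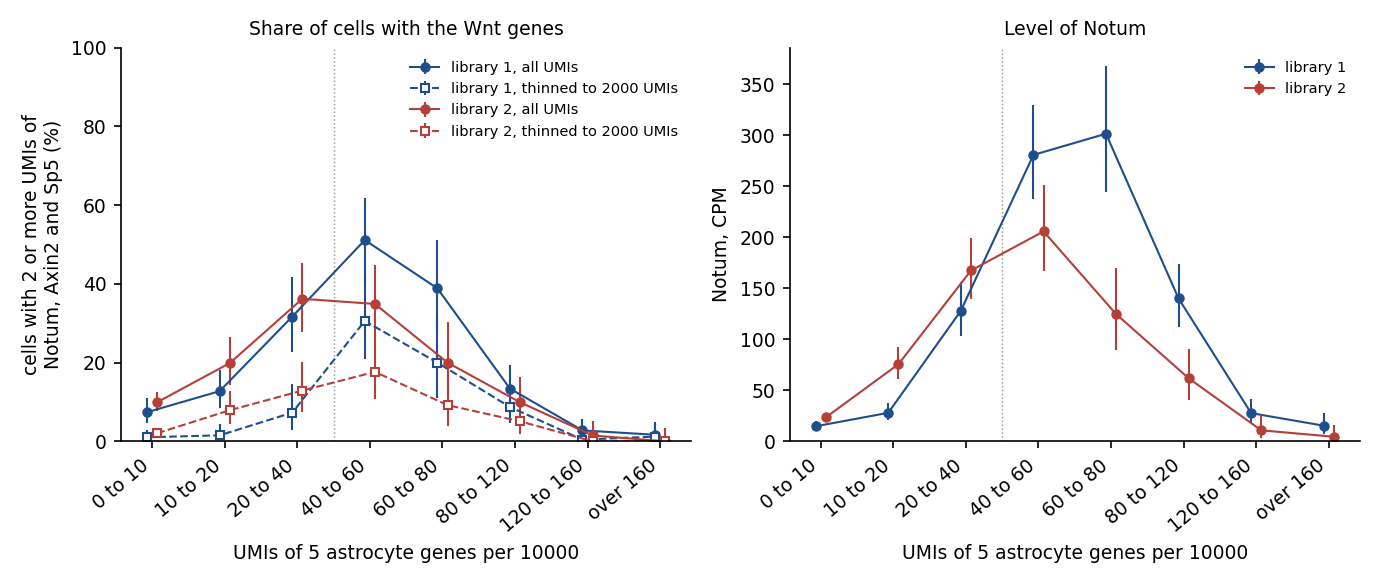
Left, share of cells with at least 2 UMIs of Notum, Axin2 and Sp5 by the level of the 5 astrocyte genes, at full depth and thinned to 2000 UMIs. Right, Notum in CPM. Bars are 95% intervals for counting error, and the dotted line is the threshold of 40 per 10000. Thinned shares peak at 40 to 60 in both libraries, at 30.6% and 17.6%.

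Holding comparison cells to the members' limits on the exclusion genes gave 358 genes (17.5%) higher and 198 (9.66%) lower of 2050. Weighting them to the members' depth gave 170 (8.42%) higher and 146 (7.23%) lower of 2018, and weighting them to the members' early gene level 101 (5.02%) higher and 93 (4.62%) lower of 2011. Because members lay low on the astrocyte axis, comparison cells were also weighted to the members' astrocyte level in 5 bins, an alternative chosen after the members had been seen. The lowest bins held 7, 7 and 25 comparison cells in library 1 and 8, 17 and 13 in library 2. The highest bin held 446 and 350. Much of each weighted level thus rests on few comparison cells. With this weighting 59 genes (2.93%) were higher and 34 (1.69%) lower of 2015. Of these, 42 and 21 were among the 302 and 167 above. The median over all genes was 0.01 and 0.06. Of 18 lists with enough genes, 0 kept a median past 1.5-fold in both libraries, against 8 of 19 without weighting. Past 1.5-fold in both libraries were 2 of 23 early genes, 0 of 7 activated progenitor genes and 0 of 78 ribosomal protein genes. Lower were 6 of the 36 astrocyte markers that still had enough UMIs.

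**Figure D4:**
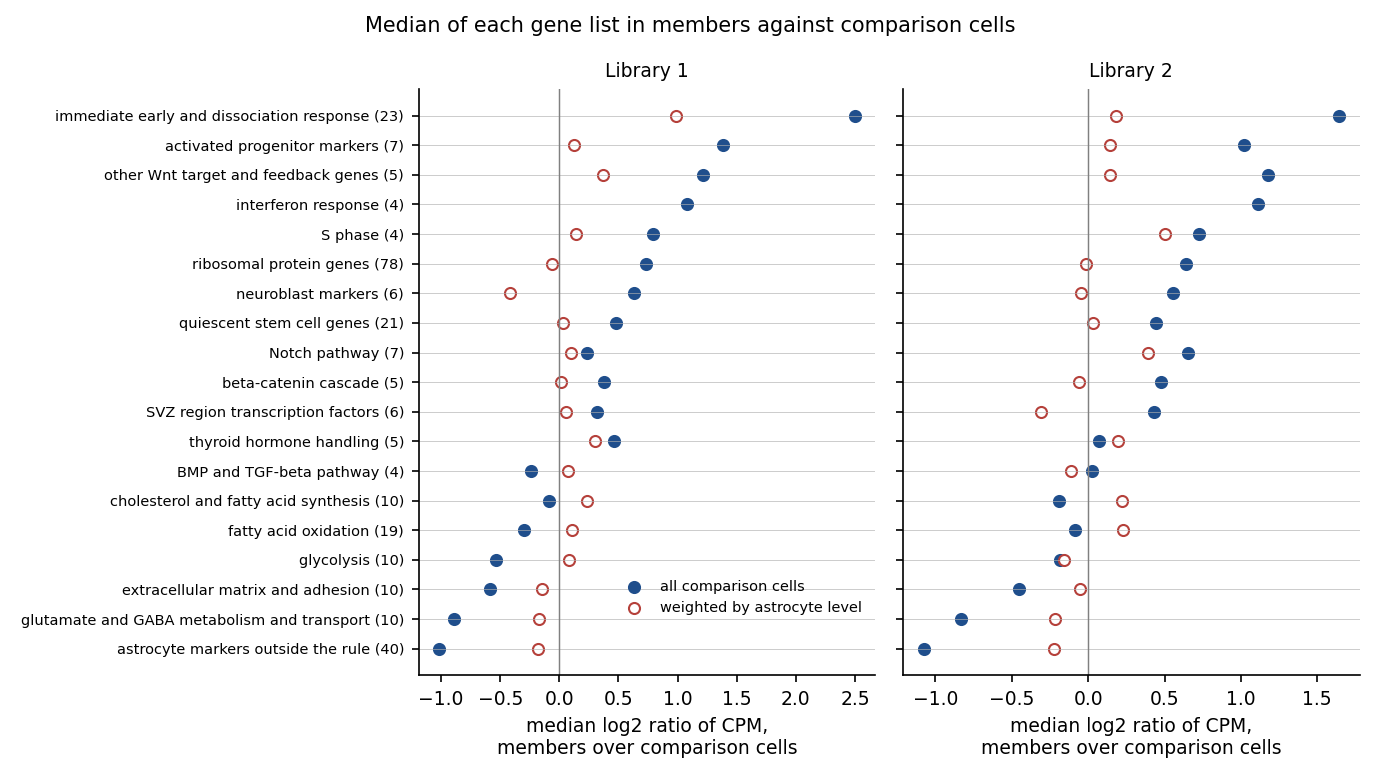
Median log2 ratio of CPM in members over comparison cells for each gene list (number of genes in brackets), library 1 at the left and library 2 at the right, against all comparison cells (filled) and against comparison cells weighted to the members' astrocyte level (open). Weighting brings the early gene list closer to 0 from 2.5 and 1.64, and the ribosomal list to -0.06 and -0.02.

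Some genes stayed apart after weighting. Nptx2 was 3.59-fold and 2.08-fold higher in members, Zfp36 3.59-fold and 1.91-fold, and Dnajb1 2.97-fold and 2.19-fold. Thrsp was 2.38-fold and 2.61-fold higher with all members, Tnfrsf19 2.17-fold and 1.86-fold, Mcm7 1.78-fold and 2.12-fold, Bmper 1.52-fold and 2.51-fold and Ldha 1.54-fold and 2.31-fold. Slc7a10, Cxcl14, Gjb6, Pla2g7 and Clu stayed lower, Clu at ratios of 0.397 and 0.602. Sox4 turned from higher to lower, at ratios of 0.519 and 0.651. Egfr no longer passed 1.5-fold in both libraries.

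Some of these ratios rested on few cells. Leaving out, for each gene, the member with most of its UMIs in each library lowers a ratio above 1 by construction and was tried after seeing the data. Against all comparison cells, 9 of 53 named genes past 1.5-fold in both libraries then no longer were, namely Ctnnb1, Fgfbp3, Hes1, Hes6, Igfbp5, Klf4, Ldha, Nfib and Thrsp. Against the weighted comparison cells, Nptx2 was then 2.71-fold and 1.55-fold higher, Tnfrsf19 1.96-fold and 1.63-fold and Mcm7 1.54-fold and 1.65-fold. Thrsp was under 1.5-fold in library 2, at 1.82-fold and 1.05-fold, as were Zfp36 at 2.98-fold and 1.19-fold and Dnajb1 at 2.0-fold and 1.41-fold. Bmper, at 1.28-fold and 1.87-fold, and Ldha, at 1.02-fold and 2.02-fold, were under it in library 1.

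Some of the same genes can be read directly in the cells at 40 to 60 per 10000. These were 15 members against 24 comparison cells in library 1 and 18 against 48 in library 2. Their median depths were close, 5438 against 5281.5 UMIs and 4276 against 3971 UMIs. Nptx2 had 596 CPM in members against 250.1 CPM in library 1, a ratio of 2.38 (1.5 to 3.86), and 251 against 95.1 CPM in library 2, a ratio of 2.64 (1.33 to 5.30). Thrsp had 519 against 192 CPM and 515 against 206 CPM, ratios of 2.71 (1.61 to 4.67) and 2.5 (1.57 to 3.98). Tnfrsf19 had 309 against 167 CPM and 440.0 against 222 CPM, ratios of 1.85 (1.01 to 3.47) and 1.98 (1.23 to 3.18). These 3 genes were chosen as high in the same members, so reading them here is no separate check. With all members both intervals of these 3 genes lay above 1. In library 2 that of Thrsp came from the cell with 28 of its UMIs, without which Thrsp had 178 CPM in members against 206 CPM, a ratio of 0.865 (0.424 to 1.66). Without the highest cell of each library Nptx2 had ratios of 1.79 (1.08 to 3.01) and 2.02 (0.929 to 4.30), and Tnfrsf19 of 1.61 (0.843 to 3.08) and 1.74 (1.04 to 2.88), so that 1 interval of each gene then included 1. Read in the same way, Zfp36 had ratios of 2.95 (1.61 to 5.61) and 1.44 (0.707 to 2.82). Dnajb1 had ratios of 1.48 (0.748 to 2.92) and 1.38 (0.571 to 3.16). Mcm7, Bmper and Ldha are not reported here at this level.

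Nkd1 was less even there. It had 7 UMIs in members against 8 in comparison cells in library 1, a ratio of 1.16 (0.360 to 3.66), and 16 against 7 in library 2, a ratio of 5.44 (2.12 to 15.6). Early genes summed to 45821 CPM in members against 25070 CPM in library 1, and 19965 against 17597 CPM in library 2. Astrocyte markers summed to 49177 against 59452 CPM and 59265 against 63335 CPM, while Clu had 287 against 1084 CPM and 1144 against 2044 CPM. Ribosomal protein genes summed to 106346 against 115936 CPM and 116053 against 116944 CPM, and so were no higher in members.

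**Figure D5:**
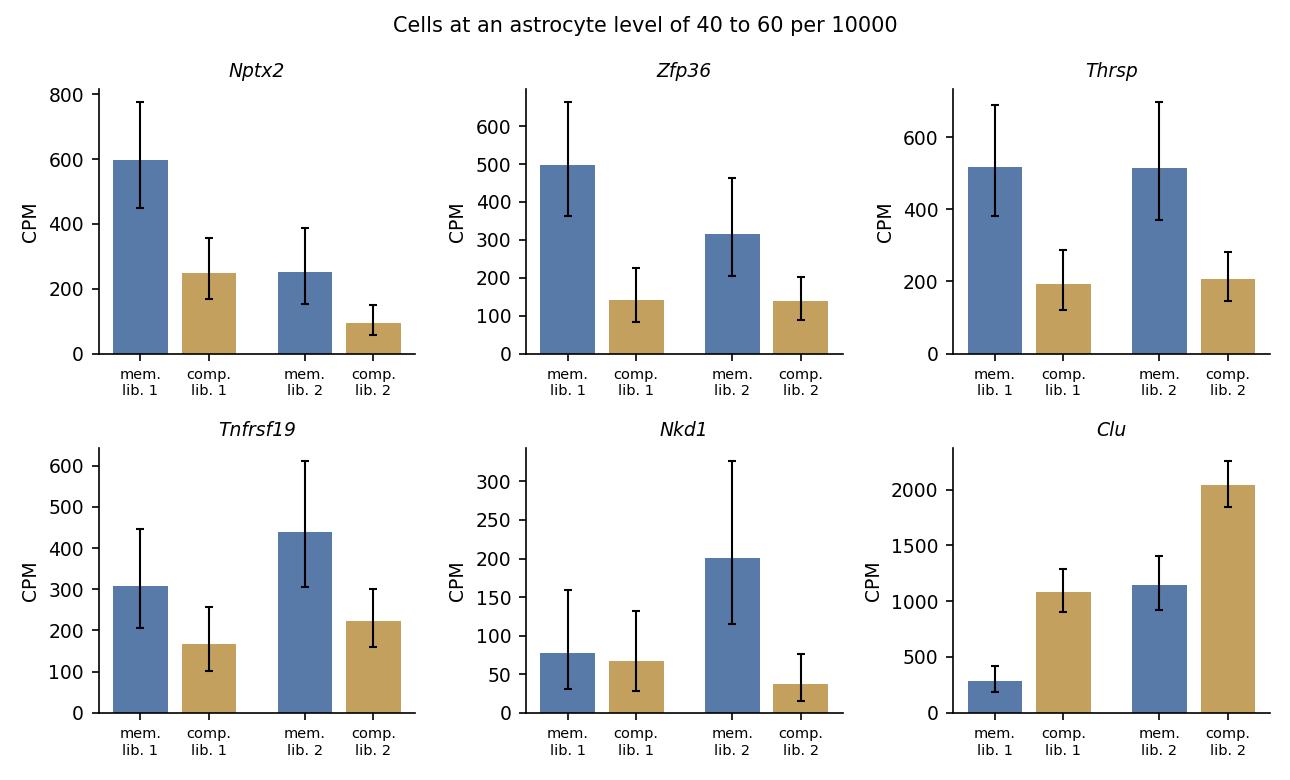
CPM of 6 genes in members (blue, left of each pair) and comparison cells (tan) with 40 to 60 UMIs of the 5 astrocyte genes per 10000, in each library, with 95% intervals for counting error. Nptx2, Zfp36, Thrsp and Tnfrsf19 are higher in members of both libraries, Thrsp in library 2 through 1 cell, Clu is lower, and Nkd1 differs between the libraries.

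Against similar cells, members differed least from the 75 and 39 cells that carried the Wnt genes together with Rspo3, Adamts18, Ecel1 or Prss56. Of 2059 genes, 44 (2.14%) were at least 1.5-fold higher in members in both libraries and 35 (1.70%) lower. The median over all genes was -0.01 and 0.00, and that of astrocyte markers 0.09 and -0.09. Of 23 early genes 1 was higher in members and 0 lower, with medians of 0.63 and -0.08. Of 6 other known Wnt targets 0 were past 1.5-fold, with medians of -0.47 and 0.20. The same held for 78 ribosomal protein genes, with medians of -0.02 and 0.08. Activated progenitor genes had 1 of 8 higher and 0 lower. None of these lists had a median past 1.5-fold in both libraries. Higher in members were Nfkbia, an inhibitor of NF-kappaB, at 211 and 133 CPM against 82.0 and 35.1 CPM, and Spry2, an inhibitor of receptor kinase signalling, at 234 and 171 CPM against 109 and 65.1 CPM. Crym was lower in members, at 506 and 351 CPM against 1311 and 1212 CPM, as was Shisa2, at 15.1 and 47.5 CPM against 102 and 140.2 CPM. By the same ranking rule, these genes were among the 12 highest or 12 lowest of this comparison, and Nfkbia was the highest. Nmt2 and Ppp1r3c ranked above Spry2. Map1b tied with Shisa2 as the lowest, ahead of Crym.

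Cells over the threshold that carried the exclusion genes but at most 1 Wnt gene UMI were more distant. Against 46 and 40 Rspo3 cells, 180 of 2058 genes (8.75%) were higher and 133 (6.46%) lower. Early genes were higher there in 10 of 23 and ribosomal protein genes in 18 of 78. Against 34 and 89 Gfap or Thbs4 cells, 149 of 2020 (7.38%) were higher and 91 (4.50%) lower, with early genes higher in 16 of 23 and ribosomal protein genes past 1.5-fold in 0 of 78. Nptx2 had 438 and 189.9 CPM in members against 101 and 31.0 CPM in Gfap or Thbs4 cells, and Bmper 75.5 and 104 CPM against 7.20 and 25.4 CPM.

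Below the astrocyte threshold, 83 cells of library 1 and 161 of library 2 also had at least 2 UMIs of the Wnt genes. Against them 376 of 2137 genes (17.6%) were higher in members and 338 (15.8%) lower. Astrocyte markers were higher in members for 28 of 30 measured genes, by the choice of the threshold. Genes of G2 and M phase were lower for 13 of 13 and S phase genes for 11 of 13. Top2a, the topoisomerase of dividing cells, had 30.2 and 28.5 CPM in members against 221 and 373 CPM, and Mki67 15.1 and 9.50 CPM against 90.3 and 124 CPM. Dlx2, a factor of progenitors that make olfactory interneurons, had 22.7 and 28.5 CPM in members against 132 and 258 CPM. Notum, which chose both groups, was 400 and 475 CPM in members and 201 and 230.1 CPM in the cells below the threshold.

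Members did not form a separate group by their other genes. Among the 15 nearest cells over the astrocyte threshold, found from 1000 variable genes without the rule genes, members made up 11.9% around a member of library 1 and 9.44% in library 2, against 1.47% and 2.87% around comparison cells. With comparison cells weighted to the members' astrocyte level the shares around them were 6.79% and 9.38%. Cells with at least 2 Wnt gene UMIs, with or without the exclusion genes, made up 45.2% and 33.6% around members, against 27.4% and 23.7% around the weighted comparison cells.

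Choosing by Notum alone, among cells within the limits, gave levels of the other Wnt genes that the choice did not use. Nkd1 had 72.1 and 123 CPM in cells with Notum against 19.2 and 16.4 CPM in cells without. Sp5 had 60.1 and 50.8 CPM in cells with Notum against 10.1 and 17.2 CPM, and Axin2 48.1 and 29.0 CPM against 20.8 and 23.7 CPM. Tnfrsf19 had 192 and 341 CPM in cells with Notum against 119 and 106 CPM. All 4 were higher in the cells with Notum in both libraries, but Axin2 in library 2 rested on 4 UMIs, whose interval of 7.91 to 74.3 CPM covers the level without Notum. The same reading by Axin2 or Sp5 was less even. In cells with Axin2, Notum had 99.5 and 49.1 CPM against 32.9 and 45.2 CPM in cells without, and Sp5 had 23.7 and 16.4 CPM against 15.2 and 21.0 CPM. In cells with Sp5, Notum had 206 and 55.9 CPM against 29.5 and 44.7 CPM in cells without, and Axin2 had 32.9 and 18.6 CPM against 23.5 and 24.7 CPM. Axin2 and Sp5 were thus lower with each other than without in library 2, on 2 UMIs each. Over all cells above the astrocyte threshold, without the limits, both were higher with each other in both libraries. Sp5 had 37.8 and 49.2 CPM in cells with Axin2 against 28.9 and 30.9 CPM without. Axin2 had 53.8 and 45.6 CPM in cells with Sp5 against 30.3 and 26.9 CPM without. In library 2 these were 12 UMIs each, with intervals that cover the levels without. Cells with and without a gene were not matched on astrocyte level in these readings. Below the astrocyte threshold, cells with Notum also had more Nkd1, at 121 and 149 CPM against 59.7 and 50.1 CPM. Tnfrsf19 there had 208 and 220 CPM with Notum against 54.9 and 56.0 CPM without.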

How the data were processed

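Single-cell libraries were made from GLAST-sorted cells with Chromium 3′ reagents, per the labels' protocols. Cell Ranger 2.0.0 and the builds GRCm38.p3 and mm10 are listed in the submitters' processing notes. The authors deposited 1 matrix of raw UMI counts per gene and barcode for both libraries, with no normalization. How cells were called is not given in the sources used here.

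The rule was applied to each barcode. UMIs were summed over members and over comparison cells within each library and divided by the summed total to give CPM, with exact Poisson, conditional or Clopper-Pearson 95% intervals. A gene with 0 UMIs was set at a floor of 3. No test was made. Intervals of pooled cells understate the spread between cells. The calculation of the 1.5-fold rule was also run on simulated members drawn from the pooled counts of comparison cells. Those lack the spread between real cells, so nothing above rests on that run. Doublets were marked by Scrublet at an expected 1.5% and not removed. Weighting used 5 bins of the members' quintiles, and thinning drew 2000 UMIs with seed 1.

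Named genes are the 12 highest and 12 lowest by the smaller log2 ratio of both libraries, the 14 genes of the rule, Slc25a18 and Dio2, and, from the gene lists, those most abundant or past 1.5-fold in both libraries, of which the text gives a part; some list members are counted but not reported here by name. Others are said to be chosen after their values were seen. The members and the 36 lists were chosen with earlier results of these data known. Gene positions are from the GRCm38 annotation, and promoters from RefSeq GRCm38.p6. Tools were Python 3.11.15, numpy 2.4.6, scipy 1.17.1, pandas 2.3.3, scanpy 1.11.5 and matplotlib 3.10.9.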

Additional observations from a re-analysis of the deposited data

Results flagged for a closer look

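The libraries gave opposite signs for 2 values. The log2 ratio of Slc25a18 in members over comparison cells was 0.41 in library 1 and -1.74 in library 2, where members had 2 UMIs. The median log2 ratio of 4 measured genes for BMP and TGF-beta signalling was -0.24 in library 1 and 0.0243 in library 2. Neither difference was tested, since each library is 1 pool of mice.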

How the results depend on the processing

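The rule gave 27 members in library 1 and 24 in library 2. An astrocyte threshold of 80 per 10000 gave 8 and 4, a threshold of 20 gave 45 and 43, no limits on the exclusion genes gave 107 and 68, and at least 3 Wnt gene UMIs gave 18 and 12. The 302 higher and 167 lower genes were of 2029. Weighting comparison cells by depth gave 170 and 146 of 2018, thinning 156 and 89 of 810, and the threshold of 80 gave 21 and 15 of 213. A 2-fold limit gave 83 and 80 of 2029. A minimum of 1 UMI gave 1629 and 527, and a minimum of 30 gave 119 and 65. Each minimum has its own number of genes, so these counts cannot be set against 302 and 167 as shares. Other alternatives were chosen after seeing the data. Weighting by astrocyte level gave 59 and 34 of 2015, and weighting by early gene level 101 and 93 of 2011. Leaving out cells with cell cycle UMIs, counted after thinning, gave 165 and 111 of 814. The planned form of that last choice, at full depth, left 2 and 1 members and gives no values. Lists past 1.5-fold in both libraries were 8 of 19, against 4 of 18 by depth, 0 of 3 at the threshold of 80, 0 of 18 by astrocyte level and 1 of 19 by early gene level. Weighting by depth turned the log2 ratios in library 1 of the other Wnt target list (-0.17), Ccnd2 (-0.17), Sox11 (-0.66) and Sox4 (-0.53). Weighting by astrocyte level turned, in library 1, ribosomal protein genes (-0.064), Klf10 (-0.17), Ccnd2 (-0.42), Nfib (-0.45), Fabp7 (-0.0741), Igfbp5 (-0.10), Smc4 (-0.30), Sox11 (-0.72) and Sox4 (-0.95). In library 2 it turned ribosomal protein genes (-0.015), Nr4a1 (-0.0123), Ccnd2 (-0.12), Crym (0.20), Fabp7 (-0.49), Vim (-0.0407), Igfbp5 (-0.0449), Rgcc (0.17), Egfr (-0.14) and Sox4 (-0.62). Weighting by early gene level turned, in library 1, Klf4 (-0.94), Junb (-0.000487), Fos (-0.0775), Nr4a1 (-0.14) and Hes1 (-0.81), and in library 2 Igfbp5 (-0.00667). The cause of these changes was not tested. Without cells marked by Scrublet, with a mitochondrial limit of 5%, and without the member highest in early genes of each library, 0 directions of named genes and lists past 1.5-fold turned. The same held without the member with most UMIs of each named gene, chosen after seeing the data, though 9 of 53 such genes were then no longer past 1.5-fold in both libraries. No paired analysis was possible because each age has 1 library and no library is tied to an age. With 51 cells of 2 pools, precision is limited by the few UMIs of each gene and by the lack of replicate pools.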

Other observations

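Along the level of the 5 astrocyte genes, in cells that were neither oligodendrocyte nor neuroblast cells, genes near the members peaked at different points. Nptx2 was highest at 20 to 40 per 10000, with 423 CPM in library 1 and 170.1 CPM in library 2, and had 105 and 77.2 CPM in the lowest class and 16.9 and 13.6 CPM above 160. Nkd1 was highest at 40 to 60 in library 1 (127 CPM) and at 10 to 20 in library 2 (119.8 CPM), with 12.3 and 13.6 CPM above 160. Prss56, one of the exclusion genes, was highest at 60 to 80 in both libraries, with 806 and 414 CPM. S100b ran the other way, with 18.7 and 14.8 CPM at 40 to 60 and 397 and 330.0 CPM above 160. These are levels over all such cells of a class, read after the members had been seen.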
